A study of Mus musculus with 31 samples.

Results

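The genes examined here encode the subunits of the oxidative phosphorylation system, the respiratory chain and ATP synthase of mitochondria. Protein-coding genes were taken by symbol: Ndufa, Ndufb, Ndufc, Ndufs and Ndufv followed by a digit, Sdha to Sdhd, Uqcr, Cox4 to Cox8, Atp5 and the mitochondrial mt-Nd, mt-Co, mt-Atp and mt-Cytb. The rule found 97 of the 47069 genes of the deposited tables, 84 of them nuclear and 13 mitochondrial. Complex I held 44 members (37 nuclear and 7 mitochondrial), complex II 4 (all nuclear), complex III 9 (8 and 1), complex IV 21 (18 and 3) and complex V 19 (17 and 2). The choice used symbols only and no measured value. The subunit genes Ndufab1 and Cyc1 are not matched by the symbols and are given with the carriers. Assembly factors with Cox10 to Cox20 symbols are likewise outside.

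The transcriptomes of 31 single lung cells from mice of genotype Csf1r-GFP were measured. The mice were 10-week adults that had undergone sham surgery, the opening of the chest cavity, 7 days earlier, and the cells came from right lung lobes. All 31 cells were sorted as CD45+, CSF1R-GFP+ and F4/80+ macrophages; the label also names Ly6G without a sign. CSF1R is the receptor of the macrophage growth factor CSF1, and the reporter marks cells in which its gene is active. All cells form 1 group and no animal is named, so the group is 1 sample, cells are not replicates, and no p-value was computed. Every SD and range is over cells.

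Complex I (NADH dehydrogenase), complex II (succinate dehydrogenase), complex III (cytochrome bc1) and complex IV (cytochrome c oxidase) pass electrons to oxygen and, except for complex II, pump protons across the inner mitochondrial membrane. Complex V, the ATP synthase, uses the proton gradient to make ATP. Mitochondrial DNA encodes a small set of hydrophobic core subunits and is transcribed inside the organelle. All other subunits are made from nuclear mRNA and imported, so each complex except complex II is assembled from products of both genomes. In macrophages the balance between glycolysis and oxidative phosphorylation is known to differ between inflammatory and repair states.

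The libraries fell into separate sets, which bear on all results. In 20 cells Lyz2, the lysozyme gene of myeloid cells, was at FPKM 1000 or more; the lowest of them was at 1229 and the next library below the minimum was at 553. FPKM counts fragments relative to transcript length and to all mapped fragments of a library. Of the counts outside the mitochondrial genome, 90.3 to 97.1% lay on protein-coding genes in these 20 cells, and 40.8 to 61.4% in 10 other libraries, called low-coding below. The remaining library, F11 (named by its capture position), had 92.3% and Lyz2 at 0. Total counts were 521492 to 4059833 in the 20 cells and 120835 to 1592301 in the low-coding libraries, 8 of which were shallower than all 21 others. All 10 fixed macrophage or monocyte markers were present, at FPKM 1 or more, in at least 50% of the 20 cells, and 2 of 10 in at least 50% of the low-coding libraries. The summed marker FPKM was 7334 to 84046 in the former and 2.19 to 4404 in the latter. Lyz2, which defines the 20 cells, is among these markers, so its high values there were fixed by the choice. Its median was 23257 FPKM in the 20 cells and 96.7 in the low-coding libraries, and it makes much of the gap between the sums. The sort genes Csf1r and Adgre1 (F4/80) were present in 20 and 15 of the 20 cells and in 7 and 1 of the 10. Ptprc (CD45) was detected in 19 of the former and 4 of the latter. Ly6g, for which the label gives no sign, was detected in 7 of the former, with a median of 0 and a highest value of 115 FPKM. No low-coding library had it. Of the 7 alveolar macrophage markers, Siglecf, Marco, Car4, Pparg, Fabp1 and Krt79 were at 0 or below FPKM 1 in all 31. The remaining one, Chil3, was present in 12 of the 20 cells with a median of 371 FPKM and a highest value of 12025, and in 2 of the 10. Of the markers of other cell types, 1 of 8 neutrophil genes was in at least 50% of the 20 cells. In at least 50% of the low-coding libraries were 2 of 8 neutrophil, 2 of 5 endothelial, 1 of 6 dendritic and 1 of 5 B cell genes. Whether each low-coding library holds an intact cell was not tested, so their values are those of libraries and not of a cell state.

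In the 20 cells the nuclear subunit genes together gave more FPKM than the mitochondrial ones. The 84 nuclear members summed to 19383 to 57462 FPKM, with a median of 38248 and a mean of 38418 ± 11360 (SD, n = 20 cells). The 13 mitochondrial members summed to 5915 to 41493 FPKM, with a median of 18296 and a mean of 19767 ± 8592. In FPKM the nuclear sum was the higher of the pair in 20 of 20 cells. The log2 ratio of the mitochondrial to the nuclear sum, taken after adding 1 FPKM to each, ran from -1.95 in cell A12 to -0.11 in cell E7, with a median of -1.04 and an SD of 0.58. Per member the order was the opposite. The mean mitochondrial member stood at 455 to 3192 FPKM (median 1407) and the mean nuclear member at 231 to 684 FPKM (median 455), and the mitochondrial mean was higher in 20 of 20 cells. The nuclear members took 0.979 to 2.63% of a cell's counts (median 1.70%) and the mitochondrial members 0.356 to 2.57% (median 1.22%). In counts the nuclear share was not the higher in every cell. In some cells the mitochondrial share was above it, as in E7 with 2.57% against 2.13%. With expected counts in place of FPKM the median log2 ratio was -0.49. These mitochondrial values leave out reads assigned to copies of mitochondrial genes on chromosome 1, described below. With those copies added, the median log2 ratio in FPKM was -0.22 and the mitochondrial sum was the higher in 8 of 20 cells. Some copies are shorter than their genes, so their reads weigh more in this sum.

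The ratio differed between complexes in the 20 cells. In complex I the nuclear sum had a median of 12829 FPKM and the mitochondrial sum 3833, and the mitochondrial sum was above the nuclear in 0 of 20 cells. In complex III the medians were 4164 and 941 FPKM, with the mitochondrial mt-Cytb above the 8 nuclear genes together in 2 of 20. In complex IV the medians were 10782 and 7830 FPKM, and in complex V 10847 and 5543. The mitochondrial sum was the higher in 4 of 20 cells for each of these 2 complexes. With the FPKM of the chromosome 1 copies of its mitochondrial genes added, the complex IV mitochondrial median was 21735 FPKM. That sum was above the nuclear in 20 of 20 cells. The copy of mt-Co1, Gm29216 (median 7988 FPKM), has 492 bases against 1545 for mt-Co1. Its reads thus weigh more in FPKM than they would on mt-Co1, and the order on a common length was not tested. With copies added, the mitochondrial sum was still above the nuclear in 0 of 20 cells for complex I (median 4671 FPKM) and in 4 of 20 for complex V. Complex II has no mitochondrial subunit and its 4 genes summed to 0 to 1834 FPKM (median 363).

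**Figure D1:**
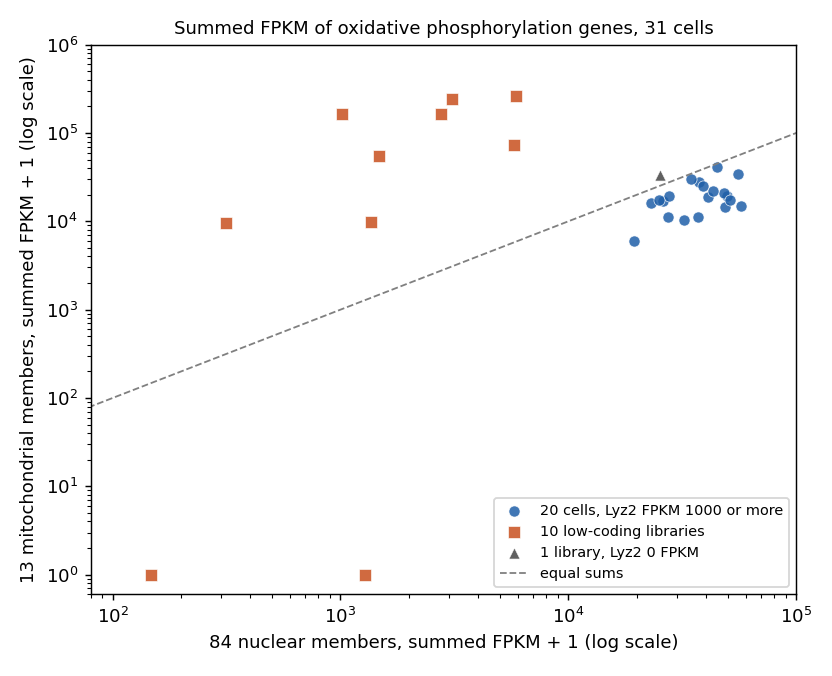
Each point is 1 library; the horizontal axis gives the summed FPKM + 1 of the 84 nuclear members and the vertical axis that of the 13 mitochondrial members, both on log scales, with the line of equal sums. The 20 cells lie below the line in a compact group; 8 of the 10 low-coding libraries lie far above it, and 2 have a mitochondrial sum of 0.

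The low-coding libraries had low nuclear subunit FPKM and mostly high mitochondrial FPKM, as the plot of the summed FPKM shows. Their nuclear sum was 147 to 5886 FPKM (median 1416), and 10 of 10 lay below all 21 other libraries. Their mitochondrial sum was 0 to 259850 FPKM (median 64062). With each library scaled to 1000000 summed FPKM over nuclear protein-coding genes, of which they hold less, the medians were 4697 nuclear and 193191 mitochondrial, against 41167 and 19095 in the 20 cells. In FPKM the mitochondrial sum was above all 21 others in 6 libraries (G3, C4, D10, D8, F8 and G1), within their range in F2 and D12, and 0 in E9 and E5. The log2 ratio was 2.86 to 7.33 in the 8 libraries with any mitochondrial member, -7.21 in E9 and -10.33 in E5. The last 2 are set by the added 1 FPKM, since no count fell on any mitochondrial member there, which allows a share of up to 0.00248% of counts in E9 and 0.000925% in E5 (3 counts of the total, counting error only). A median of 8 of 84 nuclear members was present per low-coding library (3 to 12), against 42 (28 to 63) in the 20 cells. After rounding the expected counts and thinning every library to the total of the shallowest, which is 120829 once rounded, the medians were 6.5 and 42. Library F2, with 1592301 counts as deep as the median of the 20 cells (1591648), held 12 nuclear members and a nuclear sum of 1362 FPKM. Macrophage markers were low in the same libraries, as given above, and their part in the difference was not tested. Library F11 held 29 nuclear and 11 mitochondrial members, and its mitochondrial sum of 33751 FPKM was above its nuclear sum of 25167.

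As the deposited values divide the reads, the ATP synthase subunit gene mt-Atp6 and the cytochrome c oxidase subunit gene mt-Co2 had the highest medians of the mitochondrial members in the 20 cells. With its chromosome 1 copy of nearly the same length added, mt-Co3 (median 6525 FPKM) stood above both. For mt-Co1 the sum with its copy had a median of 9494 FPKM. That copy has 492 bases against 1545 for mt-Co1, so its reads weigh more in FPKM. The sum therefore gives no rank for mt-Co1. The gene mt-Atp6 (chrM:7927-8607) encodes the proton channel subunit a of complex V and was at 1299 to 13709 FPKM, with a median of 4812. The gene mt-Co2 (chrM:7013-7696) encodes the subunit that takes electrons from cytochrome c and was at 1403 to 10612 FPKM, with a median of 4563. Both were in 20 of 20 cells (83.2 to 100% by the exact Clopper-Pearson method at 95%, counting error only) and together made 50.6% of all mitochondrial member FPKM in these cells. A further 3 members were also present in all 20. The catalytic oxidase subunit gene mt-Co1 was at 499 to 4986 FPKM (median 1856). The complex I gene mt-Nd1 was at 277 to 3363 FPKM (median 1516). The cytochrome b gene mt-Cytb was at 57.4 to 4488 FPKM (median 941), a range that overlapped those of mt-Co1 and mt-Nd1.

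In the deposited values the other complex I genes of the mitochondrial genome were lower and less often present. The gene mt-Nd6, the single member on the minus strand, was present in 19 cells with a median of 611 FPKM and a highest value of 2685. Medians were 553 FPKM for mt-Nd4 (19 cells), 417 for mt-Nd2 (19 cells), 270 for mt-Nd3 (14 cells) and 91.4 for mt-Nd5 (14 cells). The ranges of these 5 genes overlapped, so their order is one of medians only. With its chromosome 1 copy Gm28438 added, mt-Nd3 had a median of 714 FPKM and was at FPKM 1 or more in 17 cells. The gene mt-Nd4l was present in 2 of 20 cells, at 270 FPKM in the higher of them, and in no low-coding library. It ends inside the start of mt-Nd4 (chrM:9877-10173 and chrM:10167-11544). Its chromosome 1 copy Gm10222 matches 294 of its 297 bases with 0 mismatches. Gm10222 was present in 7 of the 20 cells (highest 1306 FPKM) and in 2 low-coding libraries (highest 2962). The sum of both was at FPKM 1 or more in 8 of the 20 cells and in 2 low-coding libraries. The short gene mt-Atp8 (chrM:7766-7969) overlaps the start of mt-Atp6 and was present in 17 cells with a median of 779 FPKM and a highest value of 4879. The length that its counts and FPKM imply is 44.7 bases, against 502 for mt-Atp6, so few fragments give it a high FPKM. Leaving out mt-Atp8, mt-Nd3 and mt-Nd4l, whose implied lengths are the lowest, gave a median log2 ratio to the nuclear sum of -1.17.

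In the low-coding libraries mt-Atp6 and mt-Co2 again had the highest medians before copies are added. The median of mt-Atp6 was 19754 FPKM (0 to 74102), of mt-Co2 14720 (0 to 48501) and of mt-Atp8 11006 (0 to 43112). Each of the 3 was above the highest of the 20 cells in some of these libraries and at 0 in others. A median of 8.5 of 13 members was present there (0 to 12), against 11 (8 to 12) in the 20 cells. Mitochondrial ribosomal RNA, which is not a member, had a median summed FPKM of 17185 (0 to 38525) in the low-coding libraries and 7386 (2476 to 17095) in the 20 cells. Over all 31 libraries the log2 mitochondrial sum and the log2 mitochondrial ribosomal RNA had a Pearson r of 0.87 and a Spearman rho of 0.75, and within the 20 cells 0.23 and 0.14. These coefficients describe libraries that share an FPKM scale, and the first rests on the low-coding libraries.

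**Figure D2:**
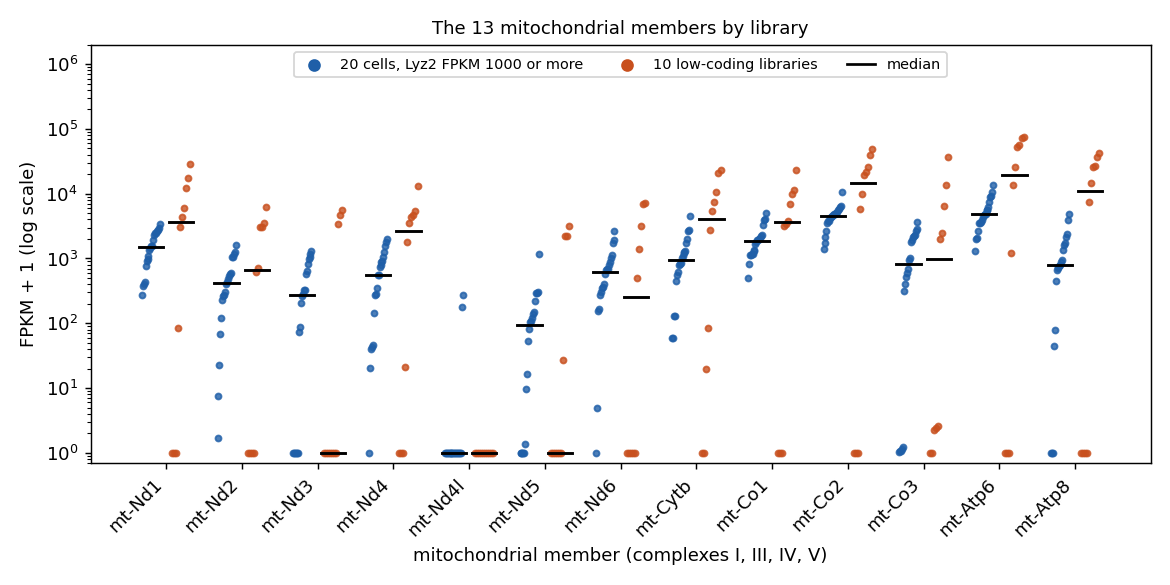
FPKM + 1 on a log scale for each of the 13 mitochondrial members, with 1 point per library and black bars at the medians; values at 1 are genes at 0. Blue points are the 20 cells with Lyz2 at FPKM 1000 or more and red points the 10 low-coding libraries, which range from 0 to 74102 FPKM for mt-Atp6 where the 20 cells range from 1299 to 13709.

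The cytochrome c oxidase gene mt-Co3 was listed below FPKM 1 in 5 of the 20 cells although it lies on the same polycistronic transcript as mt-Co2 and mt-Atp6. Its values were 0.030 to 3669 FPKM, with a median of 817. A stretch of chromosome 1 holds copies of mitochondrial genes, annotated as pseudogenes, and Gm28437 (chr1:24613189-24613971, minus strand) matches mt-Co3 (chrM:8607-9390) over 783 of 784 bases with 0 mismatches. Its first 61 bases are shown because no read inside the shared stretch can tell the genes apart:
mt-Co3: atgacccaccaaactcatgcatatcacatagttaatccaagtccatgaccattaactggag
Gm28437: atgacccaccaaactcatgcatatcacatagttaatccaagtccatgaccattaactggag
Gm28437 was at 1753 to 23107 FPKM in the 20 cells, with a median of 5714, and above mt-Co3 in 20 of 20. The sum of both had a median of 6525 FPKM, which is above the medians of mt-Co2 and mt-Atp6. How the deposited values divide these reads is an estimate, so the level of mt-Co3 alone is uncertain.

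**Figure D3:**
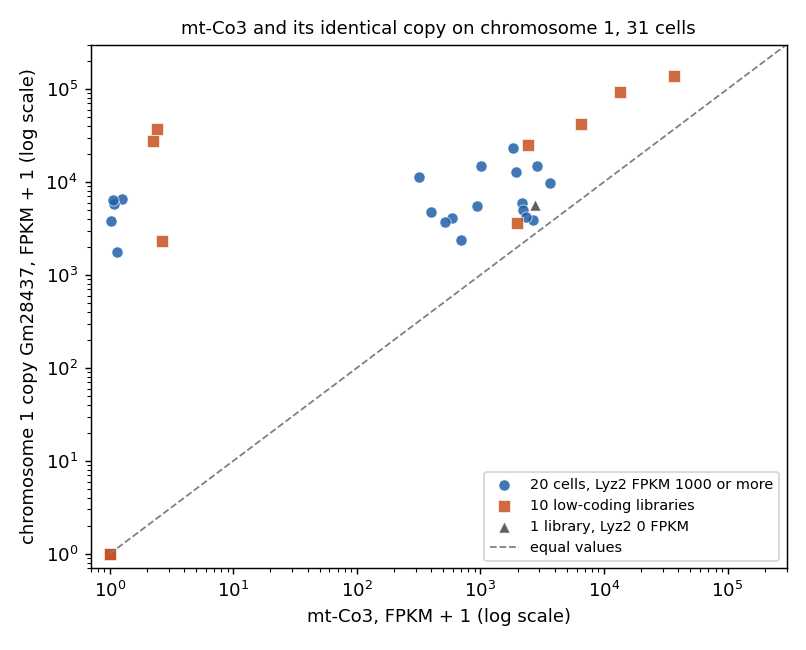
Each point is 1 of the 31 libraries; the axes give FPKM + 1 of mt-Co3 and of its chromosome 1 copy Gm28437 on log scales, with the line of equal values. The 20 cells lie above the line, and 5 of them have mt-Co3 near 0 with the copy at 1753 FPKM or more.

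Other copies differed in how much signal they were given. Gm29216 (chr1:24615706-24616197) aligns to 483 bases of mt-Co1 with the single substitution A1066T, counted from the first base of the mt-Co1 transcript with the mt-Co1 base first. It was at 318 to 25949 FPKM (median 7988) and above mt-Co1 in 19 of 20 cells. Gm28438 (chr1:24612775-24613119) aligns to 345 bases of mt-Nd3 with the single substitution T3C and had a median of 124 FPKM. The windows around both substitutions, shown with the differing base in capitals, are otherwise identical:
mt-Co1: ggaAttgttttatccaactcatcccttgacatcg
Gm29216: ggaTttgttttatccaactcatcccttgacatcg
mt-Nd3: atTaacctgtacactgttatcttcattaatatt
Gm28438: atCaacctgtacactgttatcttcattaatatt
The copies of mt-Co2 and mt-Atp6, Gm28661 and Gm10925, were at 0 in all 20 cells although they match over 681 and 678 bases. With 7 chromosome 1 copies added, the mitochondrial sum was 16307 to 76989 FPKM in the 20 cells (median 30025) and 0 to 441903 in the low-coding libraries (median 99243). In these sums the reads of the shorter Gm29216 weigh more than they would on mt-Co1.

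Nuclear members were found in the 20 cells far more widely than protein-coding genes in general. Of the 84, 47 (56.0%) were present in at least 50% of the 20 cells, and 12 of 13 mitochondrial members were. Of all 21560 protein-coding genes, 5.83% were. With library F11 added to the 20 cells, 42 of 84 nuclear and 12 of 13 mitochondrial members were, against 5.3%. In the low-coding libraries 3 of 84 nuclear and 10 of 13 mitochondrial members were, against 6.6% of all protein-coding genes, and over all 31 cells 27 of 84 and 12 of 13 were, against 4.49%. The nuclear share in the low-coding libraries was thus near or under that of all genes. By complex, the nuclear counts in the 20 cells were 15 of 37 for complex I, 1 of 4 for complex II, 5 of 8 for complex III, 11 of 18 for complex IV and 15 of 17 for complex V. No single nuclear gene dominated, since the highest, Cox4i1, made 4.90% of the nuclear FPKM and the 10 highest 33.5%.

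**Figure D4:**
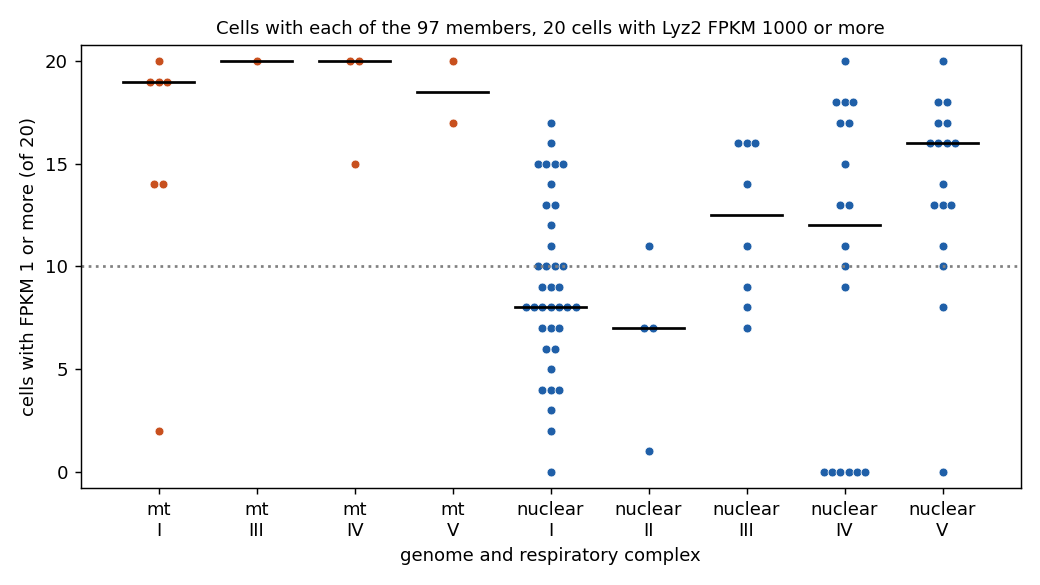
Each point is 1 of the 97 members, placed by its genome and complex; the vertical axis is the number of the 20 cells with FPKM 1 or more, black bars are medians and the dotted line marks 10 cells. Nuclear ATP synthase genes have a median of 16 cells and nuclear complex I genes a median of 8.

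In complex I the genes with the highest medians encode small accessory subunits. The accessory subunit gene Ndufa3 (chr7:3617373-3620327) was present in 15 of the 20 cells with a median of 971 FPKM and a highest value of 2713. Ndufb8, of the membrane arm, was present in 15 cells (median 838, highest 2769 FPKM). Ndufa2 and Ndufa1 were present in 16 and 14 cells, with medians of 783 and 753 FPKM. The ranges of these 4 genes overlapped almost fully and each reached 0 in some cell. The 30 accessory genes were present in a median of 9 cells (0 to 17), and 14 of 30 in at least 50%. Ndufv2, an iron-sulfur subunit of the arm that binds NADH, was present in 11 of the 20 cells with a median of 192 FPKM and a highest value of 1248. Ndufs1, whose product holds several iron-sulfur clusters, appeared in 2 of the 20 cells and 3 low-coding libraries. Ndufv1, the NADH-binding subunit, appeared in 4 cells and 0 low-coding libraries. The implied lengths of Ndufv2, Ndufs1 and Ndufv1 were 840, 1188 and 1427 bases, against a median of 456 for the accessory genes.

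Ndufa4 and Ndufa4l2 are named for complex I, though the Ndufa4 product is now known as a subunit of complex IV. Ndufa4 was present in 13 of 20 cells with a median of 635 FPKM and a highest value of 2605. The related Ndufa4l2, known as a hypoxia-induced gene, was at 0 in all 31 cells. This allows the gene to be detected in up to 11.2% of such libraries (exact Clopper-Pearson 95% interval, counting error only) and sets no limit on the cells that express it. Moving Ndufa4 would shift 1 gene between complexes and leave the sum of all nuclear members as it is.

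Complex II had the lowest median nuclear sum of the 5 complexes in the 20 cells. Sdhb, the iron-sulfur subunit, was present in 11 of 20 cells with a median of 108 FPKM and a highest value of 1384. Sdha, the flavin subunit that oxidises succinate, was present in 7 cells (highest 597 FPKM), and the membrane anchor Sdhd in 7 (highest 856 FPKM). Both had a median of 0. The other anchor, Sdhc, was present in 1 of 20 cells, at 5.99 FPKM, and in none of the other 11. Sdha reached 3547 FPKM in the low-coding library G3, which made 60.3% of its nuclear sum.

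Complex III was carried by its small subunits. Uqcrb, which helps form the ubiquinone site, was present in 16 of 20 cells with a median of 1054 FPKM and a highest value of 2211. Uqcr11 was present in 16 cells (median 554 FPKM), Uqcrh in 14 (median 485) and Uqcrq in 11 (median 477). All 4 overlapped in range. The core proteins Uqcrc1 and Uqcrc2 and the Rieske iron-sulfur protein Uqcrfs1 are longer transcripts and were present in 8, 9 and 7 cells, each with a median of 0. Of the 8 genes, 5 were in no low-coding library.

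Complex IV held the most abundant nuclear member. Cox4i1 (chr8:120668222-120674207), the ubiquitous form of the largest nuclear subunit, was at 504 to 4488 FPKM in the 20 cells with a median of 1687, and was present in 20 of 20. Cox6c was present in 18 cells (median 1391, highest 5281 FPKM). Cox8a was present in 18 (median 1186, highest 2436 FPKM), and Cox6a1 in 18 (median 916, highest 3036 FPKM). In the low-coding libraries Cox4i1 was present in 5 of 10 with a highest value of 354 FPKM, below all of the 20 cells, Cox6a1 in 1 and Cox6c and Cox8a in 0.

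Where complex IV has tissue-specific isoforms, the 20 cells held the widely expressed forms and not the muscle or testis forms. Cox6a1 was in 18 of 20 cells and the heart and muscle form Cox6a2 in none. Cox8a was in 18, and Cox8b and Cox8c were in none. Cox7a2 was in 13 (median 442 FPKM) and the muscle form Cox7a1 in none; the related Cox7a2l, which promotes the joining of complexes III and IV, was in 11 (median 48.2 FPKM). Cox7b was in 17 (median 416 FPKM) and Cox7b2 in none. Cox6a2, Cox7a1, Cox7b2, Cox8b and Cox8c were at 0 or below FPKM 1 in all 31 cells. Cox4i2, a form induced by low oxygen in lung, was in 0 of the 20 cells and in 3 of the 10 low-coding libraries, at up to 233 FPKM. An exception was Cox6b2, known as a testis form: Cox6b1 was in 17 cells (median 743 FPKM), and Cox6b2 was in 9, at a median of 106 FPKM where present and up to 1011.

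Complex V had the highest share of nuclear genes in at least 50% of the 20 cells, 88.2%. Atp5e, the epsilon subunit of the catalytic head, was present in 20 of 20 cells at 1.66 to 2764 FPKM with a median of 1261. Atp5l, subunit g of the membrane part, was present in 17 (median 1081, highest 3324 FPKM). Atp5mpl, a small associated protein, was present in 16 (median 1074, highest 3695 FPKM), and Atp5h, subunit d of the stalk, in 16 (median 991, highest 2581 FPKM). Their ranges overlapped and none but Atp5e was in every cell. The 3 genes of the proton-carrying c ring make the same mature protein. Atp5g1 was present in 13 cells (median 174 FPKM), Atp5g2 in 11 (median 74.1) and Atp5g3 in 14 (median 462), with ranges that overlapped from 0 to at least 646 FPKM. In the low-coding libraries Atp5g1 was in 9 of 10, at a median of 4.61 FPKM and up to 517, Atp5g2 in 1 and Atp5g3 in 0. Atp5s, a factor named with the synthase, was in no cell.

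Transcript length moved with these patterns. The 30 nuclear members with an implied length under 400 bases were present in a median of 14.5 of the 20 cells with a median FPKM of 618. The 19 members over 800 bases were present in a median of 8, with a median FPKM of 0. Across the 77 nuclear members present in any cell, Spearman's rho of implied length with the number of cells was -0.44 and with the median FPKM -0.52; these are across genes, which are not independent replicates. Implied length is computed from FPKM itself, so its relation with the median FPKM is in part built in. The part of length in the differences between complexes was not tested.

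Near-identical pseudogenes touch some nuclear members too. At 95% identity or more over at least 80% of either transcript, 20 nuclear members had a copy, and the 39 copies summed to 120 to 4209 FPKM in the 20 cells (median 1512). The largest was Gm12338 (chr11:75599763-75599954), 192 bases identical to Cox7c, a small complex IV subunit. Gm12338 was at a median of 855 FPKM and Cox7c at 819. The FPKM of both added together had a median of 2034. The Cox7c transcript has 540 bases, so reads on the shorter copy weigh more in FPKM. The sum therefore gives no rank for Cox7c.

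The nuclear and mitochondrial sums moved together loosely. Over the 20 cells Pearson's r of the log2 sums was 0.50 and Spearman's rho 0.38, and without the 2 cells farthest from the median nuclear sum they were 0.40 and 0.42 (18 cells). Over all 31 cells r was 0.39 and rho 0.06, and over the 10 low-coding libraries 0.63 and 0.73, where 2 libraries had no mitochondrial count. Single members barely moved together. Among members present in at least 50% of the 20 cells, the median Spearman rho over pairs was 0.07 for the 47 nuclear members and 0.23 for the 12 mitochondrial members. It was 0.07 between the genomes and 0.02 for all 1257 protein-coding genes passing the same filter. These are descriptions over cells that share an FPKM scale.

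Cells with Ly6c2, the marker of classical monocytes, had higher nuclear sums than cells without it. Of the 20 cells, 10 had Ly6c2 at FPKM 1 or more, 6 had the macrophage complement gene C1qb, 4 had neither and 0 had both. The nuclear sum was 27251 to 57462 FPKM in the 10 cells with Ly6c2 (median 46803) and 19383 to 48076 in the 10 without (median 29837). The sets overlapped, but 9 of the 10 cells with Ly6c2 were above the median of the others. The mitochondrial sum was 11113 to 41493 FPKM with Ly6c2 (median 18387) and 5915 to 30034 without (median 18296), with 5 of 10 above the median of the others. The log2 ratio of the median nuclear sums was 0.65, and 0.43 when FPKM was scaled to the other nuclear protein-coding genes. The number of nuclear members present was alike, with medians of 42 and 43.5. Total counts had medians of 1233765 with Ly6c2 and 1812009 without, and their part in the difference was not tested; among the 13 cells with 1000000 to 3000000 counts the log2 ratio was also 0.65.

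Of the 47 nuclear members in at least 50% of the 20 cells, 19 had a mean log2(FPKM + 1) at least 1 higher in the cells with Ly6c2, against 32.2% of 1257 protein-coding genes, and 10 were at least 1 lower, against 23.8%. The median difference was 0.74 for these members and 0.26 for all 1257 genes. The members' shares, 40.4% higher and 21.3% lower, are near those backgrounds and are no result particular to the members. The 3 largest positive differences were those of Uqcrq, Atp5l and Cox6c. Uqcrq, of complex III, was present in 8 of 10 cells with Ly6c2 (median 1243 FPKM) and 3 of 10 without (median 0). Atp5l was at 791 to 3324 FPKM with Ly6c2 and 0 to 2237 without, with medians of 1836 and 661. Cox6c was at 621 to 5281 FPKM with Ly6c2 and 0 to 2310 without, with medians of 2332 and 705. In the other direction the largest difference among the 47 was that of Uqcrb, -2.09. It was present in 7 of 10 cells with Ly6c2 and 9 of 10 without, with medians of 1100 and 1054 FPKM. Sdhd and Ndufv1 were in fewer than 50% of the 20 cells and so are not among the 47. Sdhd was present in 1 of 10 cells with Ly6c2 and 6 of 10 without, and Ndufv1 in 0 and 4. For each gene named here the ranges with and without Ly6c2 overlapped.

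Cells with C1qb were at the low end. Their nuclear sums were 19383 to 41186 FPKM (6 cells, median 30255), and 24892 to 57462 in the 14 without C1qb (median 44070). The 4 cells with neither gene had a median of 29837 FPKM (24892 to 48076), close to that of the C1qb cells. The mitochondrial medians were 18097 FPKM with C1qb and 18432 without. Of the 47 nuclear members, 10 were at least 1 higher with C1qb, against 22.2% of 1257 genes, and 19 at least 1 lower, against 36.6%; the members' shares are 21.3% and 40.4%. The median difference was -0.48 for the members and -0.39 for all 1257 genes, so the members lay close to genes in general. As the 6 cells with C1qb are among the 10 without Ly6c2, both comparisons share cells and are not independent.

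**Figure D5:**
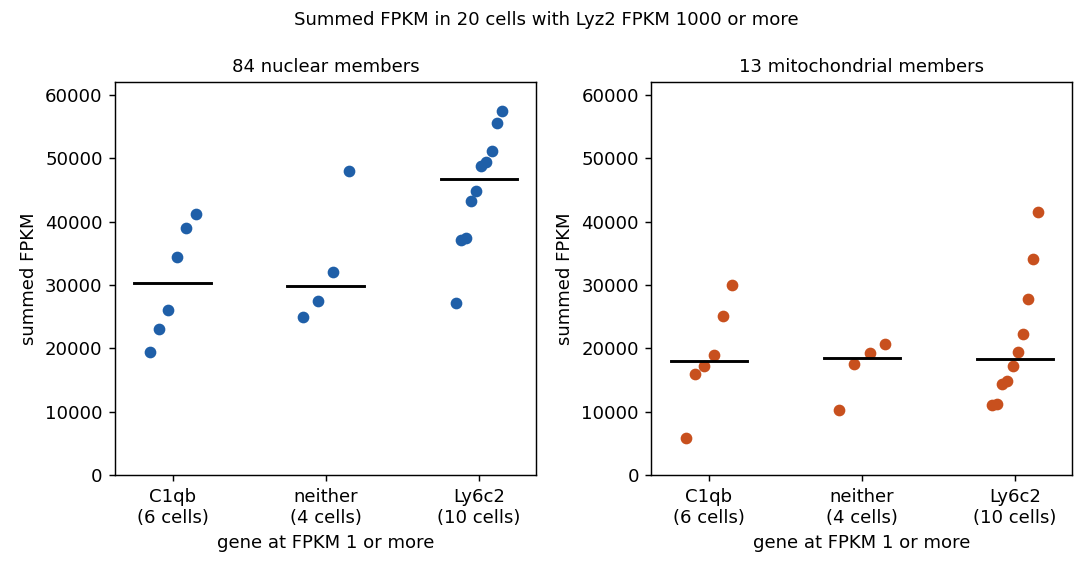
Summed FPKM of the nuclear (left) and mitochondrial (right) members in the 20 cells with Lyz2 at FPKM 1000 or more, grouped by C1qb or Ly6c2 at FPKM 1 or more; each point is 1 cell and black bars are medians. The nuclear medians are 30255, 29837 and 46803 FPKM from left to right and the mitochondrial medians 18097, 18432 and 18387.

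A list of 10 carriers, exchangers, outer membrane channels and subunit genes outside the symbols stood beside the members. Of the 10, 5 were in at least 50% of the 20 cells, against 5.83% of all protein-coding genes, and 2 in at least 50% of the low-coding libraries, against 6.6%. Slc25a5, an ADP/ATP exchanger, was in 19 of 20 cells with a median of 691 FPKM, and the uncoupling protein gene Ucp2 in 18 with a median of 652. The phosphate carrier Slc25a3 was in 14 of the 20 cells and in 6 of 10 low-coding libraries. Cytochrome c, Cycs, was in 10 of 20 cells, and the subunit genes outside the symbols, Ndufab1 and Cyc1, in 9 and 7. In the low-coding libraries Ndufab1 was in 8 of 10, at a median of 14.2 FPKM, and Cyc1 in 0.

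Most genes that build or regulate the system were present in few of the 20 cells each. Of 39 assembly factors, 25 were in at least 1 of the 20 cells, the median being 1 cell, and 4 (10.3%) were in at least 50%, against 5.83% of all protein-coding genes. Cox17, the copper chaperone of complex IV, was in 17 with a median of 783 FPKM. Acad9, a complex I assembly factor, was in 12 of the 20 with a median of 2.22 FPKM and in 10 of 10 low-coding libraries at 674 to 2412 FPKM. Of 16 genes of mitochondrial DNA upkeep, transcription and translation, 13 were in at least 1 of the 20 cells and 1 (6.25%) was in at least 50%, a share near that of all genes. This was Mterf3, a regulator of mitochondrial transcription, which was in 16 with a median of 5.11 FPKM and in 10 of 10 low-coding libraries at 162 to 1075 FPKM. Slirp, which stabilises mitochondrial mRNA, was in 7 of the 20, and Tfam, which packages mitochondrial DNA, in 2. Presence in 10 of 10 low-coding libraries was not particular to Acad9 and Mterf3: 498 protein-coding genes (2.31%) had it, among them Cxcr2, Ms4a1 and Pecam1, markers of other cell types.

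Of 8 regulators, Hif1a, an oxygen-regulated transcription factor, was in 14 of 20 cells with a median of 62.6 FPKM and in 0 of 10 low-coding libraries. The nuclear respiratory factor gene Nrf1 was in 3 of 20 and Gabpa, of the ETS family, in 2. Pprc1 and Esrra were in 2 each and Myc in 1. Of the coactivators known to drive mitochondrial biogenesis, Ppargc1a was in 0 of the 20 and in 1 low-coding library, and Ppargc1b in no cell. A gene at 0 in single-cell libraries of this depth may be expressed below what was captured.

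Promoter windows from 250 bases before to 50 after the start were taken from RefSeq on GRCm38.p6 and matched 66 of the 84 nuclear members. These members had 71 windows. Shares of members below are per gene, over all windows of that gene, and shares of all windows are per window. The motif GCGC, any base and TGCGC, which resembles the site of nuclear respiratory factor 1, was found on either strand in 17 of 66 (25.8%) and in 4.60% of all 32851 windows. The motif CCGGAAG, the core of ETS family sites, was found in 16 of 66 (24.2%) and in 8.86% of all windows. On the strand of the gene alone CCGGAAG was in 5 of 66 (7.58%) and in 4.77% of all windows. At least 1 of them was in 29 of 66 (43.9%) and in 12.6% of all. The windows of the members had a median of 57.3% G and C and all windows 52.7%, and its part in these shares was not tested. Members with CCGGAAG were present in a median of 16 of the 20 cells and members without it in 10; for the other motif the medians were 10 and 11. The windows of 2 widely present complex IV genes and of 1 isoform found in no cell are shown, 5′ to 3′ in the direction of the gene, with matches to either motif on either strand in capitals. They lie on the minus strand at chr5:115348909-115349208 (Cox6a1), chr19:7217567-7217866 (Cox8a) and chr7:140900397-140900696 (Cox8b):
Cox6a1: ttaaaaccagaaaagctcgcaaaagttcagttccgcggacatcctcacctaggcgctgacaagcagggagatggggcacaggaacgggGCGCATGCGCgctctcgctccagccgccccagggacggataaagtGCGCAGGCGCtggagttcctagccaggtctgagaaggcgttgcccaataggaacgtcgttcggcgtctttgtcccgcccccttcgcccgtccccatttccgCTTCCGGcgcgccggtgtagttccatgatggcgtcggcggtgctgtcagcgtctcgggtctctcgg
Cox8a: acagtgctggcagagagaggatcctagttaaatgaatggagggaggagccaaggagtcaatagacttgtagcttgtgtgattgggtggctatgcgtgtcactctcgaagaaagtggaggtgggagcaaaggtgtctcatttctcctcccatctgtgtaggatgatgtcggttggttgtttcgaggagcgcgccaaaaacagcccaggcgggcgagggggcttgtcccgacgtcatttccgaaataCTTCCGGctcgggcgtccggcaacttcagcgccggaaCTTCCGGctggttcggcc
Cox8b: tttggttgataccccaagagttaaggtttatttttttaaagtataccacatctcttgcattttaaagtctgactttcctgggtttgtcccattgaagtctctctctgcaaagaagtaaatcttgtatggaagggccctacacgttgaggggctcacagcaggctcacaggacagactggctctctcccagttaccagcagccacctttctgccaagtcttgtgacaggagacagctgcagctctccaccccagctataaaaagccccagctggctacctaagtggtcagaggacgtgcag
The Cox6a1 window held 2 matches to the first motif and 1 to CCGGAAG, that of Cox8a held 2 to CCGGAAG, and that of Cox8b held 0. A match is a run of letters and not evidence of binding in these cells.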

How the data were processed

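Sorted cells were captured singly on a Fluidigm C1, their polyadenylated RNA was copied and amplified by the SMARTer chemistry, and libraries were prepared by Nextera XT, per the labels' protocols. These libraries carry neither strand nor molecular identifiers: overlapping genes share reads, and several reads may stem from 1 molecule. CASAVA 1.8, Trimmomatic and RSEM were used with GRCm38, per the submitters' processing notes. The sources used here do not name an aligner or annotation release. Deposited by the authors were RSEM expected counts (estimated reads per gene, not always whole) and FPKM values, which correct for gene length and library depth. As FPKM values are shares of a library, a gene's FPKM also moves with all others. In the tables, 44 columns matched no sample and were left out.

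Of 47069 Ensembl identifiers, 46488 had a symbol in the name table; gene types and coordinates are from GENCODE M21 on GRCm38. A gene was present at FPKM 1 or more. A pseudocount of 1 FPKM was used for logs. The length a gene's FPKM implies was taken as its counts divided by its FPKM and the library's total counts. Copies were found with blastn 2.17.0. Python 3.11.15, pandas 2.3.3 and scipy 1.17.1 were used. The difference, correlation and thinning steps were tested on simulated data. No 2 libraries held identical counts. Shares of cells have exact Clopper-Pearson 95% intervals.

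Named were all mitochondrial members; per complex the 4 nuclear members with the highest median FPKM in the Lyz2 cells; all members of the Cox4i, Cox6a, Cox6b, Cox7a, Cox7b, Cox8, Atp5g and Ndufa4 families; the 3 nuclear members in the fewest of the 31 cells; members in none; the 2 genes of each outside list in most of the 31 cells, with ties; and the regulators. Other named genes (Uqcrc1, Uqcrc2, Uqcrfs1, Ndufs1, Ndufv2, Cox7c, Cycs, Ndufab1, Cyc1, Tfam, Cxcr2, Ms4a1, Pecam1 and the copies) were chosen after their values were seen. Members and lists were chosen with earlier results of these data known. The low-coding set was defined from counts, not by the labels, and its members are not a group of the study. Alternatives were other presence minimums, thinning to equal depth, other scalings and pseudocounts, counts for FPKM, copies added, other Lyz2 minimums and 1 motif strand.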

Additional observations from a re-analysis of the deposited data

How the results depend on the processing

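No paired analysis was possible because all cells belong to 1 group. Of 113 recalculations over 42 results, 96 stayed within 1 SD over cells, 11 moved further and 6 changed sign. The limit was 1.5 times for counts of genes and 1 standard error for correlations. The SD of the log2 ratio was 3.73 over all 31 cells and 6.07 in the low-coding libraries, so staying within it says little there. In the 20 cells the change of this ratio from -1.04 to -0.49 with expected counts also stayed within its SD of 0.58. In the 20 cells the median log2 ratio of the mitochondrial to the nuclear sum moved from -1.04 to -0.22 with the chromosome 1 copies added and to -0.26 with all near-identical pseudogenes added, a change that the added genes themselves make. Over all 31 cells, a mixture of the library sets, it turned from -0.60 to 0.0025 with expected counts, 0.13 with the copies and 0.098 with all pseudogenes. Reads on copies shorter than their genes weigh more in the ratios with copies. In the low-coding libraries, the median of nuclear members present fell from 8 to 4 at an expected count of 10 or more. There, 3 nuclear members in at least 50% of libraries became 1 at FPKM 5 or more, 0 at an expected count of 10 or more and 1 after thinning. Relative to nuclear protein-coding FPKM their median nuclear sum was 4697 and mitochondrial sum 193191, and of protein-coding counts the nuclear members took 0.243% and not 0.130%; their low coding share sets these. The log2 ratio of median mitochondrial sums with and without Ly6c2 was 0.0072, and -0.136 at a minimum of 50 FPKM, -0.033 scaled to other nuclear protein-coding genes and -0.0035 without the C1qb cells, so it has no direction. With 1 strand, the respiratory factor motif was in 10 of 66 members' promoter windows (15.2%, against 2.82% of all windows) and CCGGAAG in 5 (7.58%, against 4.77%); the cause of the narrower gap for CCGGAAG was not tested. The alternatives for pseudogenes, short transcripts, the 21 libraries, the C1qb and Ly6c2 scaling and depth, Ly6c2 without the C1qb cells, and libraries with a mitochondrial member were chosen after seeing the data. Depth limits single genes at 0, and its share in the low-coding libraries was not tested beyond thinning.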
